A study of Mus musculus with 6 samples.

Results

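The receptors for the constant (Fc) part of antibodies and their Fc receptor-like relatives were followed in open chromatin, using ATAC-seq, an assay that reads where a transposase can reach the DNA. The 9 genes were Fcgr1, Fcgr2b, Fcgr3, Fcgr4, Fcer1g, Fcer2a, Fcrla, Fcrl1 and Fcrl5. A peak was counted for a gene where it overlapped the gene body or, overlapping no protein-coding gene, had that gene as the nearest protein-coding one within 100 kb. This gave 57 of the 97124 deposited peaks, 27 in gene bodies and 30 between genes. Assignment to the nearest gene gives a position only and does not show which gene a peak acts on. The cells were bone marrow B-cells, and both groups came from PEtg mice, a name the labels do not expand. They were separated by H2B-GFP, a fluorescent histone that is diluted as cells divide. Cells with high H2B-GFP form the group labelled quiescent (3 samples) and those with low H2B-GFP the group labelled proliferating (3 samples), and the design names the comparison between them. The labels used here give no promoter for the transgene and no age. They also do not say whether each sample was a separate mouse, so a p-value here reflects sample-to-sample spread that can be technical in part.

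Fc receptors let cells bind antibody that is attached to an antigen. The activating receptors for IgG, Fcgr1, Fcgr3 and Fcgr4, are best known on myeloid and natural killer cells and signal through the shared gamma chain, Fcer1g, which carries an activation motif. Fcgr2b, the inhibitory receptor, is the main IgG receptor of B cells and dampens signals of the B-cell receptor. Fcer2a, or CD23, is the low-affinity IgE receptor of mature B cells. Fcrla is an intracellular relative found in B cells, and Fcrl1 and Fcrl5 are surface relatives of the B lineage that modulate signalling of the B-cell receptor.

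Fcrla, Fcgr2b, Fcgr4, Fcgr3 and Fcer1g lie on chromosome 1, Fcrl1, Fcrl5 and Fcgr1 on chromosome 3 and Fcer2a on chromosome 8. A peak covered a RefSeq start for 6 of the 9 genes, against 51.3% of 16456 protein-coding genes. The exceptions were Fcer2a, Fcgr4 and Fcrl5, whose nearest peaks lay 2489, 11494 and 12361 bp from a start. The start windows below, from 250 bases before the start to 50 after it, were taken from RefSeq on GRCm38.p6, the assembly behind mm10. They are shown because a peak overlaps each of them and the calls there differ. Another reason is that Fcrl1 and Fcrla are B-lineage members while Fcgr3 and Fcer1g belong to the activating arm. As given below, the start peak of Fcgr3 passed the threshold, those of Fcrla and Fcrl1 did not, and that of Fcer1g was too weak to test. Differences between these start peaks were not tested. Each runs 5′ to 3′ along its gene, at chr1:171059354-171059653 (minus strand) for Fcgr3, chr1:171234300-171234599 (minus strand) for Fcer1g, chr1:170927534-170927833 (minus strand) for Fcrla and chr3:87376137-87376436 (plus strand) for Fcrl1. Capitals mark matches to the searched motifs.
Fcgr3: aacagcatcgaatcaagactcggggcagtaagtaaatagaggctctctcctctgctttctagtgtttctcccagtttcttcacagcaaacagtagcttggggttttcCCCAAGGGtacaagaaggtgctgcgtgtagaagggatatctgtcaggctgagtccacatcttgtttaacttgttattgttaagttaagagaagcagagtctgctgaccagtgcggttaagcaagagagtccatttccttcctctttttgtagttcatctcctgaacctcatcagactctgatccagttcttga
Fcer1g: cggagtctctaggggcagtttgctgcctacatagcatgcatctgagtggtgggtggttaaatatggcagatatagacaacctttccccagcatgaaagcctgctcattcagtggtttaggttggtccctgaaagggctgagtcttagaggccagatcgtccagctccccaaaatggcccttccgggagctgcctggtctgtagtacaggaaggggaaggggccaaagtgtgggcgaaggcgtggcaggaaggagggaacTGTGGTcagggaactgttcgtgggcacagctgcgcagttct
Fcrla: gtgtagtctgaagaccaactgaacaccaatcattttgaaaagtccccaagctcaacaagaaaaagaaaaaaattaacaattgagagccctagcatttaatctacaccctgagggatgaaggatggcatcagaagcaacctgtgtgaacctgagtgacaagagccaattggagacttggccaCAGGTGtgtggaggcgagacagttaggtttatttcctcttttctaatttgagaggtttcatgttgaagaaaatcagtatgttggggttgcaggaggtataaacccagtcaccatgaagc
Fcrl1: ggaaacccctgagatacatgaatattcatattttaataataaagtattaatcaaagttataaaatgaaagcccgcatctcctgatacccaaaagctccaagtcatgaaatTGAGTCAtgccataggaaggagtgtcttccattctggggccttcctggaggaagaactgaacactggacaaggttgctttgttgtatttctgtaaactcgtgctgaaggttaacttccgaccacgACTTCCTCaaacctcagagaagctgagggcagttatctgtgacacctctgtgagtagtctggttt
The motifs were searched on both strands in the windows of all 9 genes and in 21262 windows of protein-coding genes. A gene is listed where any of its windows matched, while the percentages are of windows. Fcer2a has 3 RefSeq starts and Fcgr3 has 2, so the number of genes listed is not directly comparable with a percentage. The ETS and PU.1 type motif GAGGAAGT was in a window of Fcgr4 and of Fcrl1, and in 3.13% of all windows. The EBF type motif CCCNNGGG was in Fcgr3 (15.6% of all windows), and the STAT type motif TTCNNNGAA in Fcgr1 (7.69%). The E2A type motif CAGGTG was in Fcrla and Fcer2a (19.7%). The AP-1 type motif TGANTCA was in Fcer2a, Fcrl1 and Fcrl5 (6.99%), and the RUNX type motif TGTGGT in Fcer1g, Fcer2a, Fcgr4 and Fcrl5 (15.0%). The Fcgr2b window held none of these letters. A match describes the sequence and does not show that a factor binds there.

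Among the 57 peaks, 5 were more open in quiescent cells, all at the chromosome 1 genes Fcrla, Fcgr3, Fcgr4 and Fcer1g, and 3 were less open, all at Fcrl1 and Fcrl5. Values are the authors' deposited signal per peak, scaled reads with no further unit, and fold changes are quiescent over proliferating on the log2(value + 1) scale. Of the 57, 56 passed the filter that left out the weakest 10% of all peaks and were tested with limma. The 8 peaks past an adjusted p of 0.05 were 14.3% of the 56 tested, against 6.72% of all 87411 tested peaks (4.01% higher and 2.72% lower). The groups did not overlap at 14 peaks that were higher and 7 that were lower in quiescent cells, against 30.4% of all tested peaks without overlap (15.4% higher and 14.9% lower). The median log2 fold change was 0.02 over the members and -0.01 over all tested peaks. With the replicate number as a block, 10 member peaks were higher and 5 lower, against 18.3% of all tested peaks (10.2% higher and 8.14% lower). With estimated reads and TMM scaling, 12 were higher and 4 lower, against 13.6% of all tested peaks (9.27% higher and 4.38% lower). The calls depended on single samples, and so did those over all tested peaks. None of the 8 passed without quiescent sample 2 (lowest adjusted p = 0.0552) or quiescent sample 3 (0.0559), while 15 and 16 of the 56 had an unadjusted p below 0.05. Leaving out proliferating sample 2 kept 1 call, proliferating sample 3 kept 2, quiescent sample 1 kept 5 and proliferating sample 1 kept 6. Over all 87411 tested peaks, 5876 passed with all samples, 161 without quiescent sample 2 and 0 without quiescent sample 3. Without proliferating sample 2 or 3, 790 and 1160 passed. All 8 member peaks kept their direction under the 15 alternatives, but only those that rescaled the samples could have changed it. The groups did not overlap at these peaks. Pseudocount, filter, block, trend and leaving out 1 sample could therefore not turn a direction. On leaving out 1 sample, the log2 fold change ran from 0.98 to 1.12 at the Fcgr3 start peak. It ran from 1.54 to 1.65 at the peak 4305 bp upstream of Fcrla, and from -2.19 to -1.45 at the peak 12361 bp upstream of Fcrl5.

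**Figure D1:**
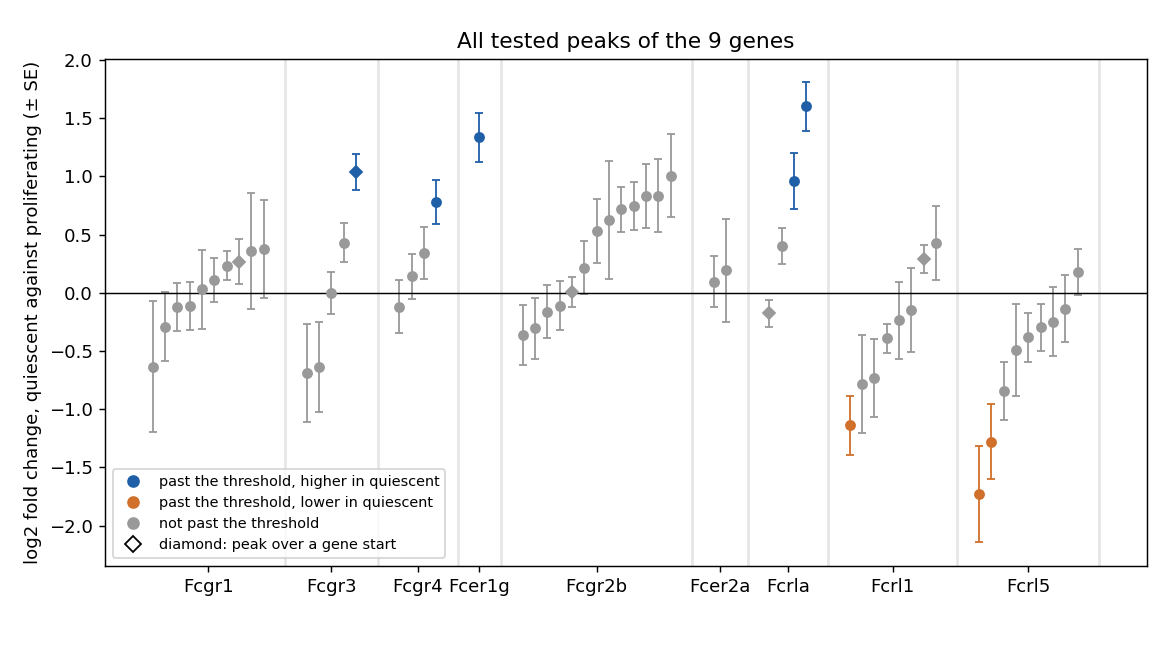
The log2 fold change of each of the 56 tested peaks (vertical axis, quiescent against proliferating, with SE bars) is plotted by gene along the horizontal axis. Coloured points passed an adjusted p of 0.05 in limma and diamonds cover a gene start. The 5 blue points lie at Fcgr3, Fcgr4, Fcer1g and Fcrla, the 3 orange points at Fcrl1 and Fcrl5, and Fcgr1, Fcgr2b and Fcer2a have none.

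The activating receptors and their chain had 20 tested peaks, with a median log2 fold change of 0.13. Of the 20, 3 were higher in quiescent cells and none lower, against 4.01% and 2.72% of all tested peaks. The start of Fcgr3, a low-affinity activating receptor for IgG, was the clearest of these. Its peak (chr1:171059005-171059976, over both RefSeq starts) had values of 427, 499 and 518 in quiescent samples 1, 2 and 3 and of 237, 222 and 242 in the proliferating samples. The lowest quiescent value was well above the highest proliferating one, and proliferating samples differed little. The means were 481 ± 48.2 (SD, n = 3) and 234 ± 10.2 (SD, n = 3), a log2 fold change of 1.03 ± 0.15 SE (limma adjusted p = 0.0108). Leaving out quiescent sample 2 or 3 gave adjusted p = 0.0644 and 0.0667, and leaving out proliferating sample 2 gave 0.0528. The peak with the most signal at Fcgr3 (chr1:171050305-171051806, across the 3′ end of the gene) had values of 789, 661 and 576 in quiescent and 542, 432 and 526 in proliferating samples. These groups did not overlap either, and the log2 fold change was 0.43 ± 0.17 SE (limma adjusted p = 0.154, 0.049 with the block and 0.0277 with TMM scaling). Of the other 3 Fcgr3 peaks, all between genes, none passed.

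Fcer1g encodes the gamma chain that carries the signal of several activating Fc receptors. A peak inside it, 1990 bp downstream of the start (chr1:171231606-171232359), had values of 188, 182 and 246 in quiescent and 91.0, 71.6 and 79.1 in proliferating samples. All 3 quiescent values lay above all 3 proliferating values. The means were 206 ± 35.2 and 80.6 ± 9.75 (SD, n = 3 each), with a log2 fold change of 1.33 ± 0.21 SE (limma adjusted p = 0.0128). Leaving out quiescent sample 2 or 3 gave adjusted p = 0.0603 and 0.0709, and leaving out proliferating sample 2 or 3 gave 0.0602 and 0.0543. The peak over the Fcer1g start (chr1:171234297-171234514) was among the weakest 10% of all peaks and was not tested. Its values were 9.89, 26.5 and 23.0 in quiescent and 4.49, 4.46 and 12.4 in proliferating samples, from an estimated 4 to 36 reads. The groups overlapped there. In bulk cells, a change in the share of cells with an open site cannot be told apart from a change in how open it is in each cell.

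Fcgr4, an activating receptor for IgG, had no peak in its body and 4 peaks between genes. The peak 11494 bp upstream of its start (chr1:171005951-171007432) had values of 864, 960 and 1028 in quiescent and 410, 644 and 634 in proliferating samples. Proliferating sample 1, the sample with the fewest reads in peaks, was the lowest, and the groups did not overlap. The means were 951 ± 82.4 and 563 ± 132 (SD, n = 3 each), with a log2 fold change of 0.78 ± 0.19 SE (limma adjusted p = 0.0435). With quiescent sample 2 or 3 left out, the adjusted p was 0.141 and 0.158, and with proliferating sample 2 or 3 left out, 0.0794 and 0.0847. The strongest peak assigned to Fcgr4 (chr1:171036493-171038996) covers 3 transfer RNA genes, and its groups overlapped, at 1862, 2434 and 2079 in quiescent and 1128, 1965 and 2098 in proliferating samples (log2 fold change 0.34 ± 0.22 SE, limma adjusted p = 0.391, and 0.0415 with TMM scaling). Peaks over transfer RNA genes made up 5 of the 57, and without them 5 of 51 tested peaks were higher and 3 lower.

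Fcgr1, the high-affinity receptor for IgG, is the activating receptor on chromosome 3. None of its 10 tested peaks passed in limma (0 at an unadjusted p below 0.05, and 1 by TMM-scaled reads), and their log2 fold changes ran from -0.63 to 0.38 with a median of 0.07. The start peak (chr3:96293596-96294449) had values of 134, 173 and 176 in quiescent and 128, 140 and 130 in proliferating samples (log2 fold change 0.27 ± 0.20 SE, limma adjusted p = 0.446). These ranges overlapped. At its strongest peak (chr3:96284112-96285216, in the gene body), the quiescent values of 687, 717 and 741 all lay above the proliferating values of 648, 593 and 584. The log2 fold change of 0.23 ± 0.13 SE did not pass (limma adjusted p = 0.298), and with estimated reads and TMM scaling the adjusted p was 0.0296.

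**Figure D2:**
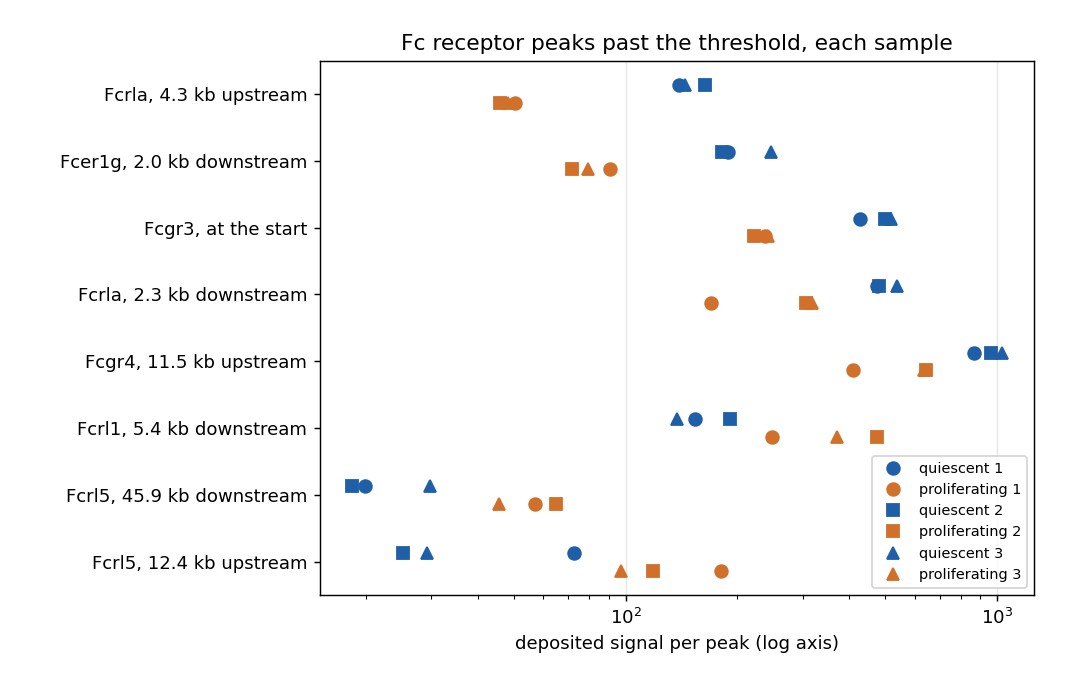
Deposited signal (horizontal log axis) is drawn for each of the 6 samples at the 8 peaks past an adjusted p of 0.05, with 1 row for each peak and its distance from the gene start. Blue points are quiescent and orange points proliferating samples, and shapes give the replicate number. The 2 colours do not overlap in any row, with quiescent samples to the right in the upper 5 rows and to the left in the lower 3.

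The inhibitory receptor Fcgr2b had the most peaks of the 9 genes. None of its 13 tested peaks passed in limma (5 had an unadjusted p below 0.05, and 2 passed by TMM-scaled reads), 9 had a log2 fold change above 0, and the median was 0.53. Its strongest peak, over the start (chr1:170975366-170977028), had values of 1050, 1094 and 950 in quiescent and 931, 1150 and 1003 in proliferating samples. The quiescent and proliferating means were nearly the same, at 1031 ± 73.8 and 1028 ± 111 (SD, n = 3 each). The log2 fold change was 0.01 ± 0.13 SE (limma adjusted p = 0.98), and 0.30 with TMM scaling (limma-voom adjusted p = 0.177). Away from the start, 5 peaks had every quiescent value above every proliferating one, and 3 of these passed with the replicate block. Over all tested peaks, 15.4% were higher without overlap and 10.2% were higher with the block. At the 3′ end of the gene (chr1:170959653-170960584), values were 469, 392 and 308 in quiescent and 253, 242 and 207 in proliferating samples (log2 fold change 0.72, limma adjusted p = 0.0613, 0.00789 with the block and 0.0176 with TMM scaling). The peak 6047 bp upstream (chr1:170982118-170982841) had values of 122, 121 and 130 against 82.6, 67.4 and 72.2 (log2 fold change 0.74, limma adjusted p = 0.0641, 0.0318 with the block and 0.0347 with TMM scaling). The peak 12612 bp upstream (chr1:170988683-170989032) was weaker, at 45.9, 66.0 and 82.8 against 20.3, 37.7 and 38.5 (log2 fold change 1.01, limma adjusted p = 0.124, 0.0306 with the block and 0.249 with TMM scaling). These 3 are named because the block changed their call.

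Fcer2a, or CD23, had 2 peaks, both in its body, and no peak over any of its 3 RefSeq starts. The stronger (chr8:3684920-3685927) had values of 209, 173 and 271 in quiescent and 172, 214 and 217 in proliferating samples. The groups overlapped, with a log2 fold change of 0.10 ± 0.22 SE (limma adjusted p = 0.827). The peak nearest a start (chr8:3687603-3687901) was weak, with values from 13.1 to 30.3 over the 6 samples (log2 fold change 0.19 ± 0.44 SE, limma adjusted p = 0.831).

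Fcrla had a peak past the threshold on each side of its start but not over it, a contrast that was not tested. Its start peak (chr1:170926970-170929639) was the strongest of the 57 peaks for its width, at 989 signal per kb, and stood at percentile 99.3 of all peaks by mean signal. Values there were 2629, 2410 and 2380 in quiescent and 2419, 3033 and 2961 in proliferating samples. The groups overlapped, and the log2 fold change was -0.18 ± 0.11 SE (limma adjusted p = 0.39). With TMM scaling it was 0.22, of the other sign (limma-voom adjusted p = 0.267). A peak 4305 bp upstream of that start (chr1:170931888-170932784), over the outer 5′ end of the annotated gene body, had values of 139, 163 and 144 in quiescent and 50.6, 45.9 and 48.4 in proliferating samples. Replicates were close within each group and the groups lay far apart. The means were 149 ± 12.6 and 48.3 ± 2.35 (SD, n = 3 each), a log2 fold change of 1.60 ± 0.21 SE (limma adjusted p = 0.00826), the lowest adjusted p among the members. Without quiescent sample 2 or 3 the adjusted p was 0.0552 and 0.0559, and it stayed below 0.05 without each of the other 4 samples.

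A second Fcrla peak, 2286 bp downstream of the start (chr1:170924289-170925297, also over the pseudogene Gm2962), had values of 474, 482 and 539 in quiescent and 170, 306 and 317 in proliferating samples. Proliferating sample 1 was again the lowest, and the groups did not overlap. The means were 498 ± 35.4 and 264 ± 81.9 (SD, n = 3 each), a log2 fold change of 0.96 ± 0.24 SE (limma adjusted p = 0.0472). Dropping quiescent samples 1, 2 and 3 in turn gave adjusted p = 0.0654, 0.137 and 0.164, and dropping proliferating samples 2 and 3 gave 0.0866 and 0.0769. Further upstream (chr1:170933594-170935060), values of 1961, 1506 and 1417 in quiescent and 1368, 1243 and 1071 in proliferating samples also did not overlap. Its log2 fold change was 0.40 (limma adjusted p = 0.153, 0.0193 with the block and 0.0228 with TMM scaling).

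**Figure D3:**
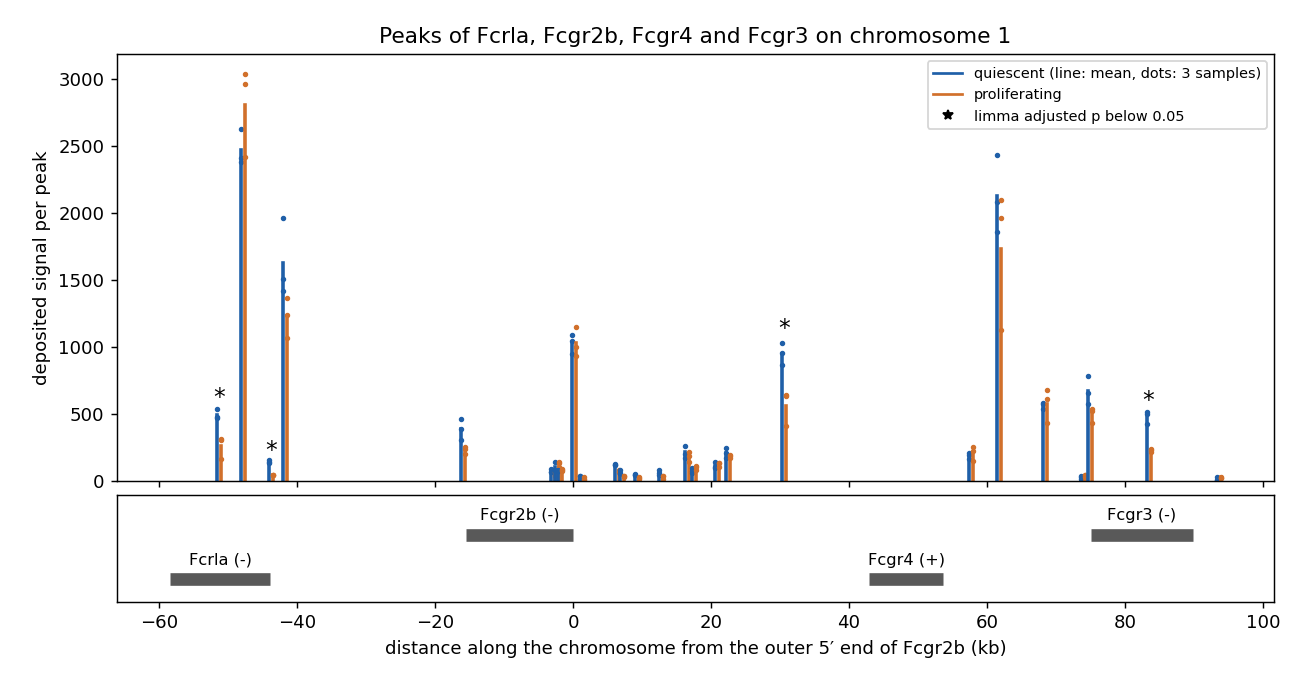
Deposited signal of the peaks of Fcrla, Fcgr2b, Fcgr4 and Fcgr3 (vertical axis; lines are group means, dots the 3 samples of each group) is plotted by distance in kb from the outer 5′ end of Fcgr2b, above the 4 gene bodies with their strands. Asterisks mark the 4 peaks with a limma adjusted p below 0.05, all higher in quiescent cells, while the tallest peak, over the Fcrla start, is not among them.

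Fcrl1 and Fcrl5, neighbours on chromosome 3, had 17 tested peaks, of which 3 were lower in quiescent cells and none higher. The median log2 fold change was -0.38, with 14 below 0. Over all tested peaks, 2.72% were lower and 4.01% higher. At the 5 genes of chromosome 1, 5 of 27 tested peaks were higher and none lower, with a median of 0.40 and 18 above 0. These 2 sets were not among the planned comparisons and follow where the calls fell, so their opposite directions are description only. The difference between these 2 sets of genes was not tested. Fcgr1, also on chromosome 3, had no call and a median of 0.07. Within the chromosome 1 set, Fcgr3 had a median of -0.004, with 3 of its 5 peaks below 0. Scaling the estimated reads to their totals moved the median of all peaks to -0.27. Relative to that median, the chromosome 1 genes stood at 0.59 and Fcrl1 with Fcrl5 at -0.42 under total scaling, against 0.41 and -0.37 with the deposited values. Under TMM scaling, which called 9.27% of all tested peaks higher and 4.38% lower, 10 peaks of the chromosome 1 genes were higher and none lower, and at Fcrl1 and Fcrl5 1 was higher, the Fcrl1 start peak, and 4 lower.

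The Fcrl1 peak that fell in quiescent cells lay in the gene body, 5369 bp downstream of the start (chr3:87381756-87382794). Its values were 154, 191 and 137 in quiescent and 248, 475 and 370 in proliferating samples. The proliferating samples spread widely, with sample 1 the lowest, but none reached down to a quiescent one. The means were 161 ± 27.6 and 364 ± 114 (SD, n = 3 each), a log2 fold change of -1.14 ± 0.26 SE (limma adjusted p = 0.034). It passed without proliferating sample 1 (adjusted p = 0.00829), and the adjusted p was 0.0551, 0.0852 and 0.133 without quiescent samples 1, 2 and 3, and 0.124 and 0.113 without proliferating samples 2 and 3. The Fcrl1 start peak (chr3:87375862-87377309) had values of 1171, 1023 and 1081 in quiescent and 942, 880 and 857 in proliferating samples. This was the reverse order of the body peak and without overlap, but the log2 fold change of 0.29 ± 0.12 SE did not pass (limma adjusted p = 0.177, and 0.0181 with TMM scaling). The strongest Fcrl1 peak, near the 3′ end (chr3:87400613-87402275), had values of 1021, 888 and 1024 in quiescent and 1281, 1380 and 1190 in proliferating samples. Its log2 fold change was -0.39 ± 0.12 SE (limma adjusted p = 0.0892, and 0.0357 with the block), and -0.05 with TMM scaling.

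Fcrl5 had 2 peaks that fell. The peak 12361 bp upstream of its start, between Fcrl1 and Fcrl5 (chr3:87422994-87423421), had values of 72.8, 25.2 and 29.2 in quiescent and 181, 119 and 97.0 in proliferating samples. Sample 1 was the highest of each group, and the groups did not overlap. The means were 42.4 ± 26.4 and 132 ± 43.5 (SD, n = 3 each), a log2 fold change of -1.73 ± 0.41 SE (limma adjusted p = 0.0419), and only leaving out quiescent sample 1 kept it past the threshold (0.012). Without the other samples in turn, the adjusted p ran from 0.0702 to 0.15. The other, deep in the gene body (chr3:87481721-87482001), had values of 19.9, 18.4 and 29.8 in quiescent and 57.0, 65.0 and 45.6 in proliferating samples, from an estimated 11 to 129 reads each. It was the member closest to the threshold on the inside (log2 fold change -1.28 ± 0.32 SE, limma adjusted p = 0.0486), and lost its call on leaving out any 1 of the 6 samples (0.0657 to 0.192), with no filter (0.052) and with the stricter filter (0.0537). The strongest Fcrl5 peak (chr3:87487495-87488681) had values of 711, 705 and 702 in quiescent and 453, 789 and 680 in proliferating samples. Proliferating sample 1 stood apart on the low side, and the groups overlapped (log2 fold change 0.18 ± 0.20 SE, limma adjusted p = 0.635). A peak at the 3′ end (chr3:87500103-87500652) had values of 49.2, 75.2 and 80.0 against 112, 124 and 125, with a log2 fold change of -0.84 (limma adjusted p = 0.0775, 0.0242 with the block and 0.0318 with TMM scaling).

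**Figure D4:**
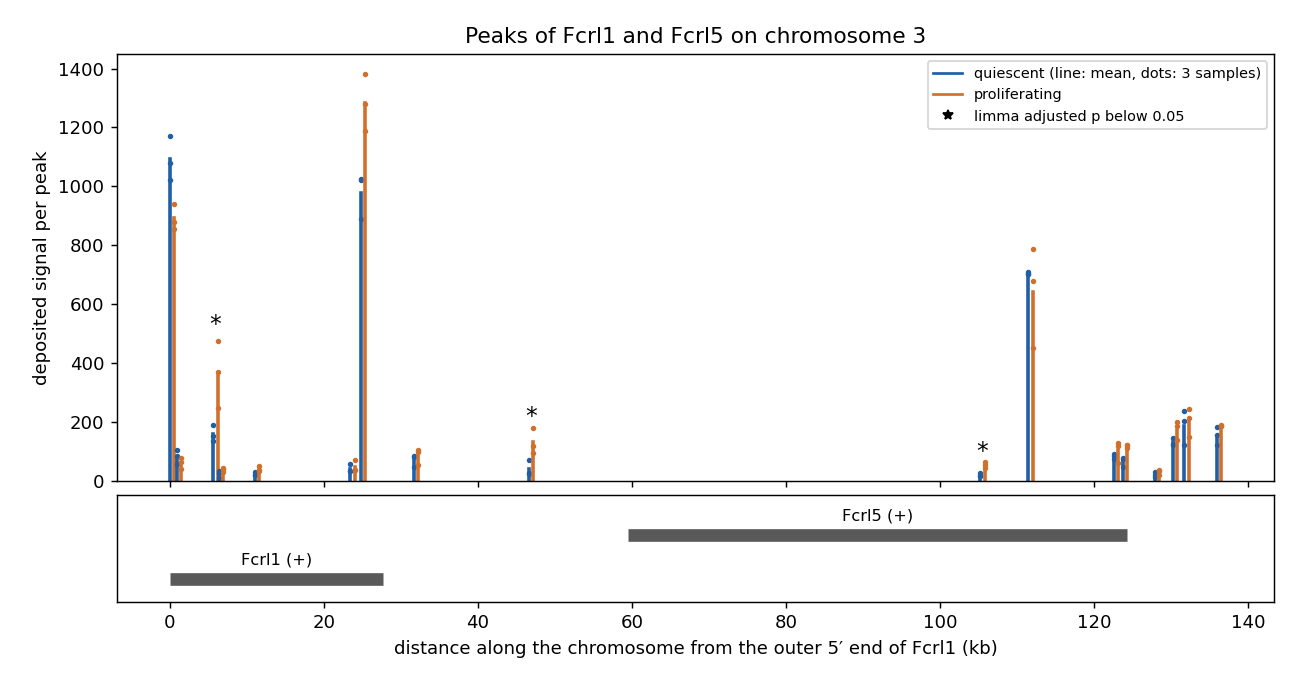
Deposited signal of the peaks of Fcrl1 and Fcrl5 (vertical axis; lines are group means, dots the 3 samples of each group) is plotted by distance in kb from the outer 5′ end of Fcrl1, above the 2 gene bodies with their strands. Asterisks mark the 3 peaks with a limma adjusted p below 0.05, all lower in quiescent cells, and the peak over the Fcrl1 start has the opposite order without passing.

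The other genes of the pathway were 10 further Fc receptors and relatives, 19 signalling genes below Fc receptors and 2 partners of CD23. Of the 31, 30 had a tested peak, and Fcer1a, the IgE-binding chain of the mast cell receptor, had no peak. They held 332 tested peaks, and 20 rose and 8 fell in quiescent cells, 8.43% against the 6.72% over all peaks, with a median log2 fold change of 0.06. Against 10.2% higher and 8.14% lower over all tested peaks, 44 of the 332 were higher and 22 lower with the block. None passed in limma with quiescent sample 2 or 3 left out (67 and 68 at an unadjusted p below 0.05), and 4 passed with proliferating sample 2 or 3 left out. By gene, 9 had only higher peaks, 4 only lower, 1 both and 16 none. Signalling genes held 17 of the higher and 7 of the lower peaks among 271 tested. Gab2, an adaptor that takes part in signalling of the mast cell IgE receptor, had 7 of 20 peaks higher. It alone held 7 of the 20 higher peaks of the whole list, the most of any gene, so the list's share leans on this gene. A peak in its body (chr7:97125351-97125663) had values of 107, 108 and 111 in quiescent and 39.2, 23.9 and 30.2 in proliferating samples (log2 fold change 1.80 ± 0.26 SE, limma adjusted p = 0.0106). Other Gab2 peaks named by rule had log2 fold changes of 1.38 (chr7:97210815-97211706, limma adjusted p = 0.0294) and 1.34 (chr7:97270721-97271541, limma adjusted p = 0.0222). Adam10, the protease that sheds CD23 from the cell surface, had a body peak (chr9:70730908-70731481) at 463, 461 and 397 in quiescent and 180, 135 and 106 in proliferating samples (log2 fold change 1.67 ± 0.22 SE, limma adjusted p = 0.00814). The groups did not overlap at the Gab2 peak and the Adam10 peak whose values are given.

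The 8 lower peaks of the other pathway genes lay at Fyn, Lyn, Syk, Plcg1 and Fcrls. Syk, the kinase that docks on the phosphorylated activation motif of the gamma chain, had a peak between genes (chr13:52561914-52562600) at 297, 188 and 139 in quiescent and 410, 597 and 491 in proliferating samples (log2 fold change -1.31 ± 0.27 SE, limma adjusted p = 0.0272). Fyn, a Src family kinase, had 4 of 38 peaks lower, with log2 fold changes of -1.20 (chr10:39560709-39561158, limma adjusted p = 0.04) and -0.93 (chr10:39370329-39371333, limma adjusted p = 0.0404) at the 2 named by rule. Fcrls, a further Fc receptor-like gene on chromosome 3, had a peak between genes (chr3:87225232-87225592) at 43.8, 47.5 and 30.4 in quiescent and 119, 128 and 102 in proliferating samples (log2 fold change -1.51 ± 0.26 SE, limma adjusted p = 0.0152).

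Over the 6 samples, the summed signal of Fcgr2b, on the log2(sum + 1) scale, was most like that of Gm6958 (Pearson r = 0.993), Ak3 (0.982) and Gm46752 (0.978). These were the highest among 9884 protein-coding genes with at least 3 peaks, of which 34 had r above 0.95. The Fcgr2b sums were 2534, 2464 and 2308 in quiescent and 2028, 2233 and 2159 in proliferating samples. That of Fcer1g was most like Elf3 (0.996), Mymk (0.995) and Prkar1b (0.995) among 9885 such genes, with 221 above 0.95. The Fcer1g sums were 198, 209 and 269 in quiescent and 95.5, 76.1 and 91.5 in proliferating samples. These are descriptions over 6 samples that share their group difference and their scaling.

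Signal at marker genes of several cell types was read in both groups. Of the B-lineage and myeloid markers, some had a peak over a RefSeq start. By mean signal, these B-lineage start peaks stood at percentiles 90.8 (Pax5) to 99.95 (Igll1) of all peaks. The myeloid ones, Itgam and Lyz2, stood at 60.9 and 62.1. Summed signal depends on how many peaks a list holds, so the sums compare the groups and do not check the cell type. All 9 B-lineage markers had peaks, their summed signal ran from 60963 to 64912 in quiescent and 57645 to 65197 in proliferating samples, and 4 of 196 tested peaks were higher and 2 lower. The 12 myeloid markers, whose cells are the usual home of the activating receptors, summed to between 12672 and 14659 in quiescent and 11223 and 13351 in proliferating samples. Of 51 tested myeloid peaks 6 were higher and 3 lower, and Elane and Mpo had no peak. T and NK markers ran from 12352 to 14340 and 12821 to 13762 (3 of 34 higher, Cd3g without a peak), and mast cell and basophil markers from 534 to 755 and 422 to 569 (0 of 7 passed in limma, 2 at an unadjusted p below 0.05, Cma1 and Mcpt8 without a peak). Erythroid and megakaryocyte markers ran from 2167 to 2356 and 2389 to 2609 (1 of 18 lower, Hba-a1 without a peak). Summed signal of plasmacytoid dendritic and plasma cell markers did not overlap, at 19205 to 22390 in quiescent and 15349 to 16628 in proliferating samples. Of their 67 tested peaks, 12 were higher. For all of these lists, the shares over all tested peaks were 4.01% higher and 2.72% lower. The part of these markers, and of the depth of proliferating sample 1, in the results at the Fc receptor genes was not tested. Proliferating sample 1 held an estimated 8052631 reads in peaks, against 31644400 and 48682081 in the other proliferating samples and from 14022546 to 28407439 in the quiescent samples.

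**Figure D5:**
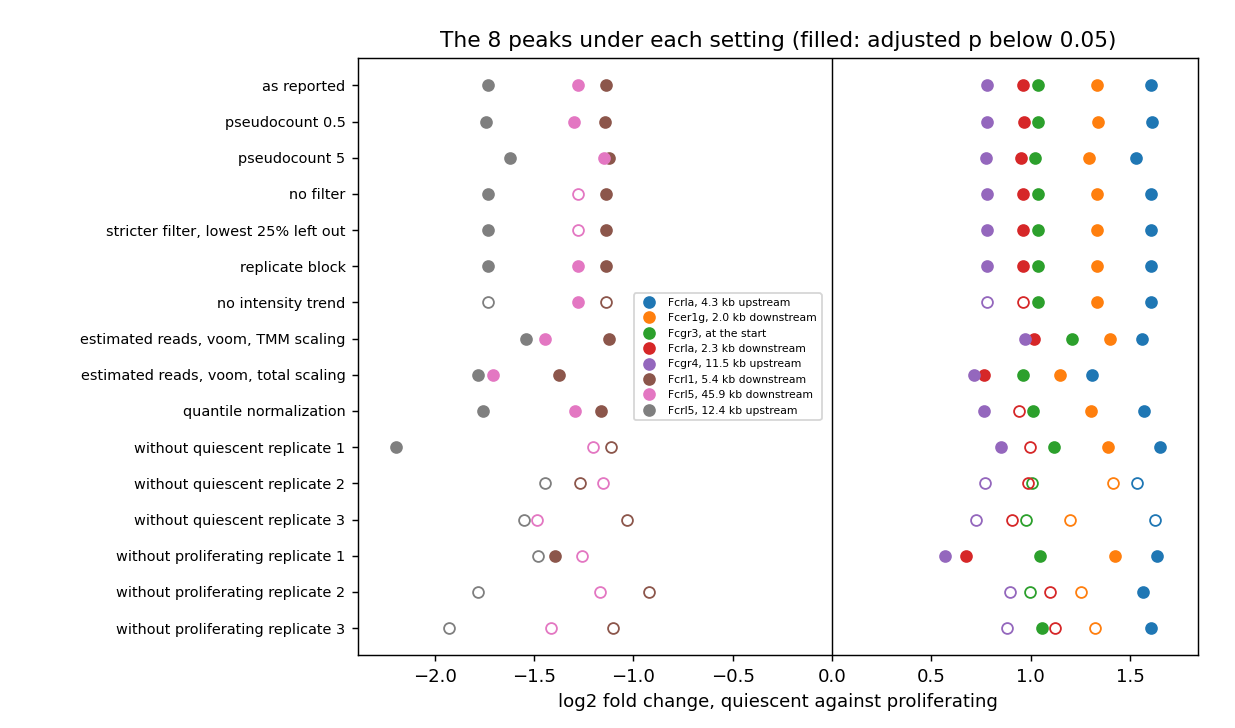
The log2 fold change of the 8 peaks (horizontal axis, quiescent against proliferating, 1 colour for each peak) is drawn as reported and under 15 alternatives (rows), filled where the limma adjusted p was below 0.05. No point crosses 0, which only the rows with another scaling allowed, and no point is filled without quiescent replicate 2 or 3.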

How the data were processed

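ATAC-seq libraries of 3 quiescent and 3 proliferating samples were sequenced in 2 runs each, per the labels' protocols. Alignment and peak calling tools were Bowtie2, SAMtools and MACS2 on mm10, per the submitters' processing notes. The authors deposited a scaled signal, not whole reads, for each sample over a single list of 97124 peaks. Sources used here do not state how the signal was scaled or how the transposase offset was handled. Coordinates are as the authors' file gives them. Totals of the deposited signal ranged from 20904407 to 21518630 across samples.

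Peaks above the lowest 10% by mean (87411) were tested with limma 3.58.1 in R 4.3.3, on log2(value + 1) and with its variance trend, with Benjamini-Hochberg adjustment over all of them and a threshold of 0.05. The fit was first tested on simulated data. Reads were estimated from the step between low values in each sample, came out within 0.1 of a whole number for 99.6% to 100.0% of values per sample, below a limit of 1000 reads, and were used in limma-voom alternatives only. In simulated reads over 97124 peaks, 99.8% were recovered within 1% in the sample with the lowest share. The deposited value of 1 read changed with peak strength. In proliferating sample 1 it was 1.31 in the weakest 10% of peaks and 2.72 in the strongest 10%. A contrast between strong and weak peaks can therefore depend on the scaling. Titles share replicate numbers, and no label says what a number marks. Deviations from the group means correlated between samples of the same number (r = 0.43, 0.29 and 0.21 for numbers 1, 2 and 3), while of the other pairings quiescent 2 with proliferating 3 (0.22) and quiescent 3 with proliferating 2 (0.15) were also positive. As each same-number correlation was over 0.1, the numbers were used as a block in an alternative fit, not in the main one. These values do not set numbers 2 and 3 apart, as 0.22 for quiescent 2 with proliferating 3 is above 0.21 for number 3. The pairing is an assumption, and blocked values stand beside results they change.

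Genes, strands and start windows came from RefSeq tables of GRCm38.p6, in which all 9 genes matched by symbol. Named peaks were, for each gene, the strongest, the one nearest the start and each past the threshold, and for the other pathway genes the 4 with the largest change in each direction above the median signal. The genes, lists and rules were chosen with earlier results of these data known. Alternatives covered pseudocount, filter, block, intensity trend, scaling and each sample left out. Protein sequences were not used here.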

Additional observations from a re-analysis of the deposited data

How the results depend on the processing

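The 8 member peaks kept their direction under all 15 alternatives, of which only those that rescaled the samples could have changed it. Over all peaks, 5876 passed, and 15999 with the replicate block, 3247 with no intensity trend, 11930 with estimated reads and TMM scaling (8101 higher, 3829 lower) and 13155 with total scaling (4335 higher, 8820 lower, against 3501 and 2375 as reported). Leaving out 1 sample gave 0 to 8241, the 0 without quiescent sample 3, with 16512 peaks at an unadjusted p below 0.05 in that limma fit. Member peaks past the threshold were 8, and 15 with the replicate block, 4 with no intensity trend, 16 with TMM scaling and 12 with total scaling (7 higher, 5 lower). On leaving out 1 sample in limma they were 0 to 7 (the 0 without quiescent sample 2 or 3, with 15 and 16 at an unadjusted p below 0.05). For the other pathway genes the count was 28, and 66 with the replicate block, 7 with no intensity trend, 54 with TMM scaling, 52 with total scaling, and 0 to 34 on leaving out 1 sample. Gene bodies alone gave 6 member peaks, and leaving out the between-gene peaks that overlap a gene that does not code for protein, an alternative chosen after seeing the data, gave 8 of 44. Among the member peaks, the blocked fit removed no call and added 7, each named above. The cause of these shifts was not tested. Depth limits what weak peaks can show, such as the Fcer1g start peak with as few as 4 estimated reads in a sample.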
